A study of Mus musculus with 17 samples.

Results

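The 42 genes described here are interferon-stimulated genes named in a list, among 55401 Ensembl mouse gene identifiers counted in 17 RNA sequencing libraries of bone marrow-derived macrophages. All 42 matched exactly 1 identifier by symbol, and all 42 passed the filter on low counts in every comparison. Macrophages of the C57BL/6J strain formed 4 groups: a control group (3 libraries), cells in medium conditioned by B16F10 mouse melanoma cells (3), and cells in that medium with added KCl (3) or NaCl (2). Exposure to conditioned medium lasted 6 hours, and the added salt was brought to 40 mM. For the control no duration is stated. Conditioned medium with KCl labelled isotonic was given to Kcnj2f/f macrophages (3 libraries), called floxed here, and to Lyz2-Cre-Kcnj2f/f macrophages (3), called the Kcnj2 knockout. Both were also listed with 6 hours of exposure and 40 mM salt. Kcnj2 is the gene of Kir2.1, a potassium channel of the inward rectifier family, and Lyz2-Cre deletes floxed sequence in myeloid cells, not in macrophages alone. No group of floxed or knockout cells without isotonic KCl was present, and no C57BL/6J group received isotonic KCl. How the isotonic medium was made, what the control cells received, and whether replicates came from separate mice or cultures are not stated in the labels. The p-values therefore measure only the spread between these libraries, which may be technical.

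Type I interferons are secreted when receptors for microbial or misplaced nucleic acids, or Toll-like receptors, are engaged. They bind the Ifnar1 and Ifnar2 receptor chains, whose kinases Tyk2 and Jak1 activate a complex that holds Stat2 and Irf9 and binds interferon-stimulated response elements in promoters of genes such as Isg15, Ifit1 and Oas3. Interferon gamma acts through a different element, the gamma-activated sequence, found in genes such as Irf1. The products degrade viral RNA, block viral entry, sense nucleic acids or feed back on the pathway, and macrophages also switch many of them on after Toll-like receptor engagement.

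The promoters of 6 members are shown because they carry the motifs of this pathway. They do not span the patterns described below, as none of the 6 was called lower with either salt. Isg15 (ENSMUSG00000035692), Ifit1 (ENSMUSG00000034459) and Rsad2 (ENSMUSG00000020641) rose in conditioned medium and further with each salt in C57BL/6J cells. Irgm1 (ENSMUSG00000046879) and Irf1 (ENSMUSG00000018899) did so too, and Irf1 is the transcription factor gene with a gamma-activated sequence. Oas3 (ENSMUSG00000032661) holds the same motif as Isg15 but was not called in any comparison. Each line gives the 150 bases before a RefSeq transcription start on GRCm38.p6, read 5′ to 3′ on the strand of the gene. Capitals mark, on either strand, GAAA repeated after a gap of any 2 bases, a core of the interferon-stimulated response element, except in Irf1, where they mark TTCNNNGAA, a core of the gamma-activated sequence.
Isg15, chr4:156200819-156200968, minus strand: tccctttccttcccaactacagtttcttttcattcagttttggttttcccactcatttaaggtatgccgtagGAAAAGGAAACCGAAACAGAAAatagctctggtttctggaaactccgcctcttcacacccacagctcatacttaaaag
Ifit1, chr19:34640739-34640888, plus strand: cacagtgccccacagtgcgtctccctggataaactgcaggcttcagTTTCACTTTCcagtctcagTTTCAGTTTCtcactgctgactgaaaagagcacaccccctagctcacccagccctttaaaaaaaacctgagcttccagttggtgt
Rsad2, chr12:26456453-26456602, minus strand: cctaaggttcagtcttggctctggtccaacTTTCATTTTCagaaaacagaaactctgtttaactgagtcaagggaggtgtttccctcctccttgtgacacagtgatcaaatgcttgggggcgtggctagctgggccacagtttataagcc
Irgm1, chr11:48871421-48871570, minus strand: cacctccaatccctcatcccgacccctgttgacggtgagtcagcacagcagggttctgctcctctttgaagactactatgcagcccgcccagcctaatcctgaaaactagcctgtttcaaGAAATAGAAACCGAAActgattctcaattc
Oas3, chr5:120777660-120777809, minus strand: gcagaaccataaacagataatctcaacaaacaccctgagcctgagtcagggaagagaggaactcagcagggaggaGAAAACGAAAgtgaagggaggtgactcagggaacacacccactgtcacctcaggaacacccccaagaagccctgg
Irf1, chr11:53769864-53770013, plus strand: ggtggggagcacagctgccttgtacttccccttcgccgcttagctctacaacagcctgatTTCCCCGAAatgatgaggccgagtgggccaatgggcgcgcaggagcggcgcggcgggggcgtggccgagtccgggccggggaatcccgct

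In Isg15 the 3 matches overlapped one another and began 78 to 66 bases before the start. Ifit1 held 2 separate matches, at 104 and 85 bases, on the strand opposite to the gene. In Rsad2 the match lay 120 bases before the start, in Oas3 75 bases, and in Irgm1 the overlapping 2 matches lay at 30 and 24 bases. The single match of Irf1 lay at 90 bases. RefSeq windows of 300 bases, from 250 before to 50 after the start, were found for 31 of the 42 members. The GAAA pair, searched on both strands with overlaps counted, occurred in 17 of these 31 genes (54.8%) against 3.99% of 27025 genes with a window. TTCNNNGAA, which reads the same on both strands, occurred in 10 of 31 (32.3%) against 9.55%. Both shares describe letters in these windows and not binding.

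Several members lie side by side in the genome (GENCODE M21, GRCm38). Ifit2, Ifit3 and Ifit1 fall between 34550694 and 34650009 on chromosome 19. Rsad2 (26442746 to 26456452) and Cmpk2 (26469204 to 26479837) are neighbours on opposite strands of chromosome 12. Oas2, Oas3 and Oas1a fall between 120730333 and 120907521 on chromosome 5, and Ifi204 and Ifi203 between 173747293 and 173942672 on chromosome 1. Near-identical copies make some counts uncertain: of the 50-base words in the exons of Oas1a, 57.57% also occur in another gene, and the shares were 51.24% for Ifit3, 20.02% for Ifi204, 12.22% for Ifi203 and 11.77% for Igtp. In all, 12 members shared more than 5% of these words. The strand setting of the counting is not given in the sources used here, so reads of Dhx58, Irf1, Irf7, Oasl1 and other members with a gene overlapping their exons could not be told apart from reads of that gene.

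Library totals ran from 13503869 to 19391623 counts. The tendency of counts to follow gene length differed between libraries. Its slope was 0.072 to 0.132 in control, 0.034 to 0.096 in conditioned medium and 0.081 to 0.129 with NaCl, but reached −0.114 to 0.005 in the KCl group. In the isotonic groups it was −0.163 to −0.02 (knockout) and −0.181 to 0.124 (floxed). Macrophage markers summed to 25600 to 29400 CPM (counts relative to library size, TMM-scaled) in the 5 groups other than the knockout. They summed to 12700 to 13800 CPM in the knockout, where Lyz2 itself, the locus that carries the Cre driver, stood at 7410, 8370 and 7170 CPM. Siglech, which defines plasmacytoid dendritic cells, known as strong interferon producers, was at 0 in every group but the control, and Klk1 was at 0 in every group. Summed, the 8 markers of these cells were at 72.6 to 75.7 CPM (control), 41.0 to 44.1 (conditioned medium), 53.6 to 58.2 (NaCl), 55.5 to 109 (KCl), 40.0 to 51.6 (knockout) and 39.9 to 67.6 (floxed). Neutrophil markers summed to 13.5 to 15.9 CPM in control and to 23.4 to 25.6 CPM in conditioned medium alone. The 8 markers of melanoma cells summed to 2670 to 6620 CPM over all libraries, nearly all of it Gpnmb (2530 to 6450 CPM), which macrophages also express. Mitf, also known in macrophages, stood at 66.1 to 71.8 CPM in control and at 138 to 237 CPM in the other groups. Pmel, Mlana, Tyrp1 and Sox10 were each below 1 CPM in every library, and Tyr and Dct were at 0 in all groups. Stromal markers summed to 646 to 784 CPM (control), 573 to 632 (conditioned medium), 553 to 622 (NaCl) and 328 to 538 (KCl), and with KCl against conditioned medium 5 of 8 fell and 1 rose. The part of these markers in the results below was not tested.

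Most of the 42 members were lowest in control macrophages and higher in every group given conditioned medium. Of the 42, the control had the lowest group mean in 37. Samhd1, Sp100 and Dhx58 were lowest with KCl, Oas3 in conditioned medium alone and Ifi27l2a with NaCl. The highest mean fell in the knockout for 21 members, with NaCl for 18, with KCl for Ifit1 and Ifi204, and in conditioned medium alone for Samhd1. Averaged over the 38 members with a mean of at least 10 CPM, as standard deviations of group means around each gene's own mean, groups stood at −1.58 in control, −0.11 in conditioned medium, 0.05 with KCl, 0.41 with NaCl, 0.45 in floxed and 0.79 in knockout cells. Per kilobase of exon the most abundant members over the 17 libraries were Bst2 (293 CPM per kb), Ifitm3 (280) and Isg15 (119), and the least abundant was Iigp1 (0.785). In bulk RNA, fewer expressing cells and less RNA per cell cannot be told apart.

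**Figure D1:**
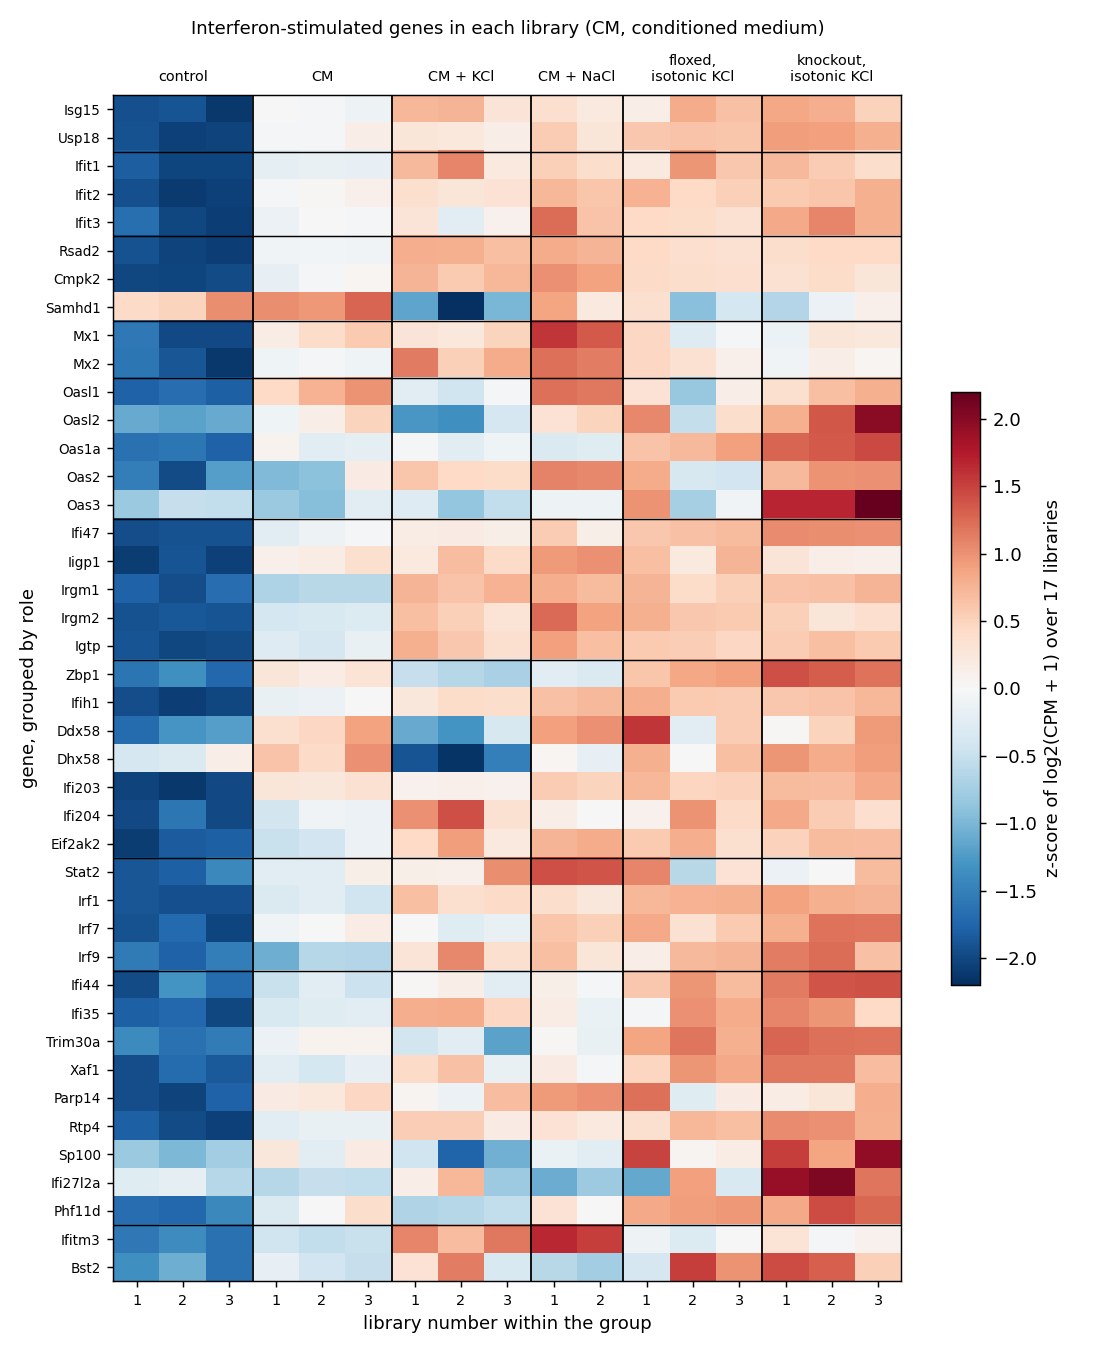
Levels of the 42 interferon-stimulated genes (rows, by role) in 17 libraries (columns, by group), as standard deviations of log2 CPM around each gene's own mean over the libraries. The 3 control columns are the lowest for most genes, and the control had the lowest group mean in 37 of 42.

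Conditioned medium was set against control, whose medium and duration the labels do not state. Products of the melanoma cells therefore cannot be told apart from other differences between the media. The listed members rose almost throughout: 38 of 42 rose, none fell, and 24 were at least 2-fold higher. They were chosen with earlier results of these data known. In a further list of 51 tested interferon-stimulated genes, given below, 30 rose and 6 fell. The median log2 fold change of the members was 1.3, against −0.04 over all genes tested. In edgeR's quasi-likelihood test 53.5% of 14519 genes were called in either direction, 27.2% as higher and 26.4% as lower, and 9.57% of genes were called and at least 2-fold higher. The 4 members not called were Oas3, Samhd1, Sp100 and Ifi27l2a, with log2 fold changes of −0.02, 0.08, 0.22 and −0.14. Scaling by total counts alone moved the median of all genes to −0.373 and the share of called genes that were higher from 50.8% to 24.9%. Under it 33 members rose, Oas3 and Ifi27l2a fell, and Bst2, Dhx58, Ifitm3, Irf9 and Oas2 were no longer called.

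Rsad2 encodes viperin, which makes a chain-terminating nucleotide. It stood at 6.88, 5.72 and 5.46 CPM in control and at 77.2, 79.9 and 77.7 CPM in conditioned medium. All conditioned-medium libraries lay far above all controls, and the log2 fold change of 3.69 (SE 0.11, adjusted p = 4.7e-12) was the highest of the 42. Its neighbour Cmpk2, a mitochondrial nucleotide kinase, went from 5.51, 5.47 and 5.75 CPM to 28, 32.2 and 34.1 CPM (log2 fold change 2.49, SE 0.11, adjusted p = 2.7e-10). Isg15, the ubiquitin-like modifier, stood at 7.34, 7.63 and 5.83 CPM in control and at 64.9, 62.8 and 56.8 CPM in conditioned medium (3.14, SE 0.18, adjusted p = 1.6e-08). Usp18, which removes Isg15 from proteins and restrains the receptor, rose from 5.25 ± 0.384 to 28.3 ± 2.22 CPM (SD, n = 3 and 3). For Cmpk2 and Isg15, too, no control library came near those of conditioned medium.

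Ifit proteins bind viral RNA. Ifit1 stood at 9.82, 7.54 and 7.51 CPM in control and at 73.5, 75.9 and 74.5 CPM in conditioned medium (3.16, SE 0.32, adjusted p = 9.8e-06). Ifit2 stood at 8.81, 7.42 and 7.8 CPM and then at 46.2, 48 and 52.1 CPM (2.60, SE 0.10, adjusted p = 5.3e-11). For both genes the lowest conditioned-medium library was several times the highest control. Ifit3 rose by 1.26 on the log2 scale. The Mx GTPases trap viral nucleocapsids, although many laboratory mouse strains carry defective copies and the annotation lists Mx2 as a polymorphic pseudogene. Mx1 stood at 2.48, 1.61 and 1.6 CPM in control and at 10.5, 12.5 and 14.2 CPM in conditioned medium (2.71, SE 0.18, adjusted p = 3.2e-08), without overlap. Mx2 rose by 2.58.

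The Oas family moved less evenly. Oas enzymes make 2′-5′ oligoadenylates that activate RNase L. Oasl1, a family member that represses translation of Irf7 in mice, stood at 1.7, 1.86 and 1.68 CPM in control and at 7.45, 8.98 and 10.2 CPM in conditioned medium (2.33, SE 0.17, adjusted p = 4.7e-08). Oas1a stood at 44.8, 45.6 and 42.5 CPM and then at 86.5, 76.9 and 77.8 CPM (0.85, SE 0.08, adjusted p = 5.9e-07). In both genes the groups were apart. Oas3 stood at 23.9, 26.3 and 26 CPM in control and at 23.9, 22.9 and 28.7 CPM in conditioned medium, so the groups overlapped (−0.02, SE 0.11, adjusted p = 0.89). Oasl2 and Oas2 rose by 0.79 and 0.38, and the call of Oas2 was lost without control 2 or conditioned medium 3.

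All 5 immunity-related GTPases, which attack vacuoles that hold intracellular microbes, rose. Iigp1 stood at 0.413, 0.593 and 0.452 CPM in control and at 4.23, 4.43 and 5.06 CPM in conditioned medium (3.21, SE 0.22, adjusted p = 3.5e-08). Ifi47 stood at 9.96, 10.3 and 10.3 CPM and then at 40.1, 45 and 47.4 CPM (2.10, SE 0.12, adjusted p = 4.7e-09). Irgm1, which regulates the other family members, stood at 35.9, 32.8 and 38.1 CPM and then at 66.3, 68.9 and 69 CPM (0.93, SE 0.08, adjusted p = 2.8e-07). No library of 1 group reached the other in any of these 3 genes. Igtp and Irgm2 rose by 1.16 and 0.92.

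All 7 nucleic acid sensors and kinases rose too. Ifi203, of the family that holds DNA-binding Ifi204, stood at 11.9, 11 and 12.5 CPM in control and at 89.8, 89.1 and 95.6 CPM in conditioned medium (2.95, SE 0.08, adjusted p = 2.6e-12). Zbp1, a sensor of Z-form nucleic acid that starts necroptosis, stood at 4.22, 5.38 and 3.78 CPM and then at 20.5, 18.9 and 21.1 CPM (2.17, SE 0.14, adjusted p = 1.5e-08). The groups were far apart in both. Ddx58, which encodes the RNA sensor RIG-I, went from 21.1, 24.2 and 25 CPM to 43.4, 45.1 and 52.4 CPM (1.00, SE 0.13, adjusted p = 1.5e-05). Ifi204 went from 93.3, 104 and 93.3 CPM to 144, 157 and 155 CPM (0.64, SE 0.10, adjusted p = 8.2e-05). Dhx58, the regulator of RIG-I known as LGP2, went from 17.8, 18.1 and 21.1 CPM to 24.6, 23 and 27.7 CPM (0.40, SE 0.11, adjusted p = 0.0085), the smallest change of the 7. Its call was lost without conditioned medium 3. Ifih1, which encodes the RNA sensor MDA5, rose by 1.57 and Eif2ak2, the kinase PKR that halts translation, by 0.87.

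The 4 transcription factors rose. Irf1 stood at 45.1, 43.4 and 43.3 CPM in control and at 122, 127 and 113 CPM in conditioned medium (1.45, SE 0.09, adjusted p = 1e-08). Irf7, which amplifies interferon production, stood at 13.9, 15.3 and 13.2 CPM and then at 32.5, 34.1 and 36.4 CPM (1.27, SE 0.09, adjusted p = 6.8e-08). Both were at least 2-fold higher with no overlap. Stat2 rose by 0.84. Irf9 rose by 0.22 (adjusted p = 0.032), a call that was lost without control 1, 2 or 3 or without conditioned medium 2 or 3.

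Among the others, Parp14, an ADP-ribosyltransferase, stood at 64.9, 61.9 and 71.4 CPM in control and at 213, 219 and 247 CPM in conditioned medium (1.77, SE 0.14, adjusted p = 1.9e-07). Rtp4, a chaperone of receptors at the cell surface, stood at 36, 32.1 and 30.1 CPM and then at 101, 105 and 105 CPM (1.65, SE 0.10, adjusted p = 9.1e-09). These genes were at least 2-fold higher, without overlap. Bst2, which encodes tetherin and holds budding virions at the cell surface, stood at 102, 120 and 85.9 CPM and then at 203, 176 and 168 CPM (0.82, SE 0.25, adjusted p = 0.0168). Its groups did not overlap, although the call was lost without control 3. Ifitm3, which blocks viral fusion, rose from 128 ± 3.94 to 164 ± 2.11 CPM.

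**Figure D2:**
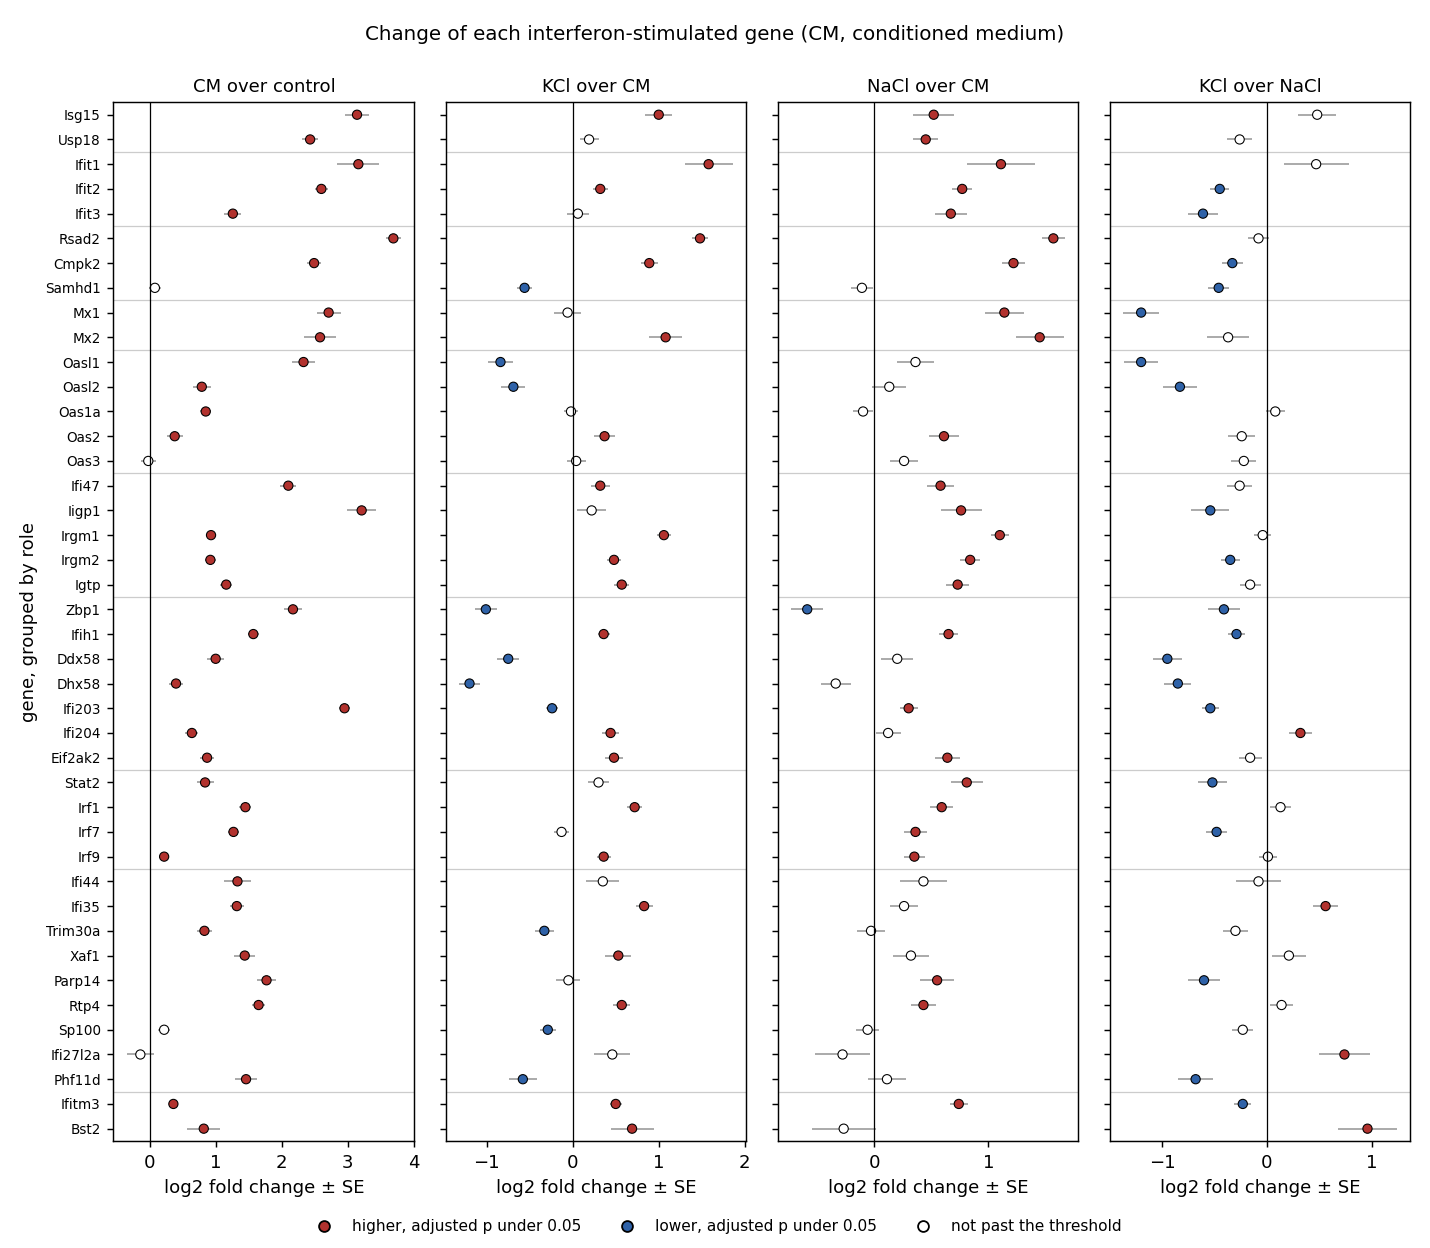
Log2 fold changes (points) with standard errors (bars) of the 42 genes, by role, in the 4 comparisons of C57BL/6J cells; filled points passed the threshold. Of the 42 points 38 are filled to the right of 0 for conditioned medium over control, 21 for KCl over conditioned medium, 25 for NaCl over conditioned medium and 4 for KCl over NaCl.

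With KCl added to conditioned medium, members were called in both directions, as were genes at large. Relative to conditioned medium alone 21 of 42 rose, 10 fell and 11 were not called, with a median log2 fold change of 0.33 against −0.01 over all genes. Among all 14519 genes 53.9% were called, 26.6% as higher and 27.4% as lower. Of the 42 members 5 rose at least 2-fold, as did 1180 of 14519 genes (8.13%). The 10 that fell were Dhx58, Zbp1, Oasl1, Ddx58, Oasl2, Phf11d, Samhd1, Trim30a, Sp100 and Ifi203, with log2 fold changes from −1.20 to −0.24. KCl libraries also differed from the others in the length slope given above. With that slope as a covariate 18 members were called, 14 as higher and 4 as lower (Dhx58, Zbp1, Samhd1 and Trim30a), and 16 of the 31 calls were kept in the same direction. Over all genes 5035 of 14519 (34.7%) were then called, against 7830 without it. Scaling by total counts alone moved the median of all genes to −0.222 and the share of called genes that were higher from 49.3% to 32.6%, and gave 14 members higher and 12 lower.

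Rsad2 stood at 236, 228 and 197 CPM with KCl, against the 77.2 to 79.9 CPM of conditioned medium alone (1.48, SE 0.09, adjusted p = 4.2e-08). Irgm1 stood at 145, 136 and 147 CPM (1.06, SE 0.08, adjusted p = 1.8e-07), and Cmpk2 at 61.4, 53.3 and 60.8 CPM (0.89, SE 0.10, adjusted p = 5.5e-06). In all 3 genes every KCl library exceeded every library without salt. Ifit1 had the widest spread, at 219, 337 and 121 CPM (1.58, SE 0.28, adjusted p = 0.00081), and Isg15 stood at 141, 144 and 87.5 CPM (1.00, SE 0.16, adjusted p = 0.00023). KCl 3 was the lowest in both yet stayed above conditioned medium alone. Neither was called with the length slope in the fit. Ifit2 stood at 63.3, 58.5 and 61.7 CPM (0.32, SE 0.09, adjusted p = 0.00696), a change of under 1.5-fold.

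Irf1 stood at 224, 185 and 193 CPM (0.72, SE 0.09, adjusted p = 1.4e-05) and Rtp4 at 166, 166 and 132 CPM (0.57, SE 0.10, adjusted p = 0.00027). Ifi204 stood at 211, 236 and 176 CPM (0.44, SE 0.10, adjusted p = 0.00179) and Ifi47 at 55.7, 56.8 and 54.4 CPM (0.32, SE 0.11, adjusted p = 0.0257). The libraries lay above those of conditioned medium in all 4 genes, though the call of Ifi47 was lost without conditioned medium 1 or 2 or without KCl 1. Bst2 stood at 270, 437 and 185 CPM and overlapped the 168 to 203 CPM without salt (0.69, SE 0.25, adjusted p = 0.0366); the call was lost without conditioned medium 2 or 3 or without KCl 2. With the length slope as a covariate Bst2 turned to −0.37. Also higher with KCl were Mx2, Ifi35, Igtp, Xaf1, Ifitm3, Irgm2, Eif2ak2, Oas2, Ifih1 and Irf9, with log2 fold changes from 1.08 down to 0.36. With the length slope in the fit Ifi204, Ifi47, Rtp4, Bst2, Xaf1, Eif2ak2 and Irf9 were not called either. Oas2 was not called without conditioned medium 1 or 2 or without KCl 1.

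In the opposite direction, Dhx58 stood at 10.8, 9.9 and 12.3 CPM with KCl, below all conditioned-medium libraries and also below the 17.8 to 21.1 CPM of control (−1.20, SE 0.12, adjusted p = 2.9e-06). Zbp1 stood at 11, 9.9 and 9.31 CPM, well under the 18.9 to 21.1 CPM without salt (−1.01, SE 0.13, adjusted p = 3e-05). Ddx58 stood at 26, 24.1 and 33.8 CPM (−0.75, SE 0.13, adjusted p = 0.00024) and Oasl1 at 4.9, 4.37 and 5.56 CPM (−0.84, SE 0.15, adjusted p = 0.00046). For these 4 genes no KCl library reached conditioned medium alone, and the last 2 were not called with the length slope in the fit. Ifi203 stood at 77.6, 78.8 and 77.8 CPM (−0.24, SE 0.07, adjusted p = 0.0128), a small change whose call was lost without conditioned medium 3. Samhd1, which breaks down deoxynucleotides, fell from 227 ± 5.84 to 154 ± 17.7 CPM. Trim30a was not called without conditioned medium 2 or 3, nor Sp100 without conditioned medium 1 or KCl 2.

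Groups overlapped in Mx1 (11.5, 11 and 13.4 CPM with KCl), Irf7 (33.8, 29.9 and 31.4), Iigp1 (4.57, 6.33 and 5.31), Oas1a (82.5, 76.5 and 81), Parp14 (199, 180 and 280) and Oas3 (28.3, 23.6 and 26.1). None of the 6 was called, with log2 fold changes of −0.06, −0.13, 0.22, −0.02, −0.05 and 0.04.

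With NaCl the movement was mostly upward. Compared with conditioned medium alone 25 of 42 rose, Zbp1 fell and 16 were not called, with a median log2 fold change of 0.44 against −0.01 over all genes. The share of all genes called was 28.7%, with 13.7% higher and 14.9% lower. Members at least 2-fold higher numbered 6 (Rsad2, Mx2, Cmpk2, Mx1, Ifit1 and Irgm1), and 2.67% of all genes were so. The group holds 2 libraries. Without NaCl 1 the called members numbered 16, with Ifit3, Usp18 and Irf9 among those lost, and without NaCl 2 they numbered 19. Scaling by total counts alone gave 22 higher and 2 lower, as the share of called genes that were higher went from 48% to 37%.

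Rsad2 stood at 239 and 222 CPM with NaCl (1.57, SE 0.10, adjusted p = 2.1e-07), Cmpk2 at 76.2 and 69.3 CPM (1.22, SE 0.10, adjusted p = 2.7e-06) and Irgm1 at 149 and 141 CPM (1.10, SE 0.08, adjusted p = 1.2e-06). Mx1 stood at 29.4 and 25.1 CPM (1.14, SE 0.17, adjusted p = 0.00019). Both NaCl libraries exceeded all libraries of conditioned medium alone in these 4 genes. Ifit1 stood at 174 and 148 CPM (1.11, SE 0.30, adjusted p = 0.0191) and Ifit2 at 86.4 and 79.1 CPM (0.77, SE 0.09, adjusted p = 5.2e-05). Iigp1 stood at 7.54 and 7.89 CPM (0.76, SE 0.18, adjusted p = 0.00597) and Irf1 at 189 and 173 CPM (0.59, SE 0.10, adjusted p = 0.00043). Again the groups were apart, though the call of Ifit1 was lost without NaCl 1 or NaCl 2 and that of Iigp1 without NaCl 2.

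Ifi47 stood at 76.9 and 54.7 CPM (0.58, SE 0.12, adjusted p = 0.00291; not called without NaCl 1) and Parp14 at 325 and 336 CPM (0.55, SE 0.15, adjusted p = 0.0136). Isg15 stood at 93.9 and 81.5 CPM (0.52, SE 0.18, adjusted p = 0.0453), and its call was lost without any 1 of the 3 libraries of conditioned medium or either with NaCl. Rtp4 stood at 143 and 135 CPM (0.43, SE 0.11, adjusted p = 0.00815; not called without NaCl 1). All NaCl values lay above those without salt in these 4 genes. Irf7 stood at 44.7 and 42.9 CPM (0.36, SE 0.10, adjusted p = 0.0152) and Ifi203 at 116 and 109 CPM (0.30, SE 0.08, adjusted p = 0.0116), with no overlap. Calls of Irf7, Ifi203 and Parp14 were each lost without NaCl 1 or NaCl 2, and those of Irf7 and Parp14 also without conditioned medium 1.

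Zbp1 stood at 13.7 and 12.8 CPM, below the 18.9 to 21.1 CPM without salt (−0.59, SE 0.14, adjusted p = 0.00707; not called without NaCl 2). Dhx58 stood at 20.4 and 19 CPM, also below conditioned medium alone, and missed the threshold (−0.34, SE 0.13, adjusted p = 0.057). Not called either were Ddx58 at 52.6 and 54.6 CPM, Oasl1 at 11.5 and 11.2 CPM, Oas1a at 74.1 and 75.7 CPM, Oas3 at 30 and 30 CPM, Ifi204 at 167 and 161 CPM, and Bst2 at 158 and 144 CPM.

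**Figure D3:**
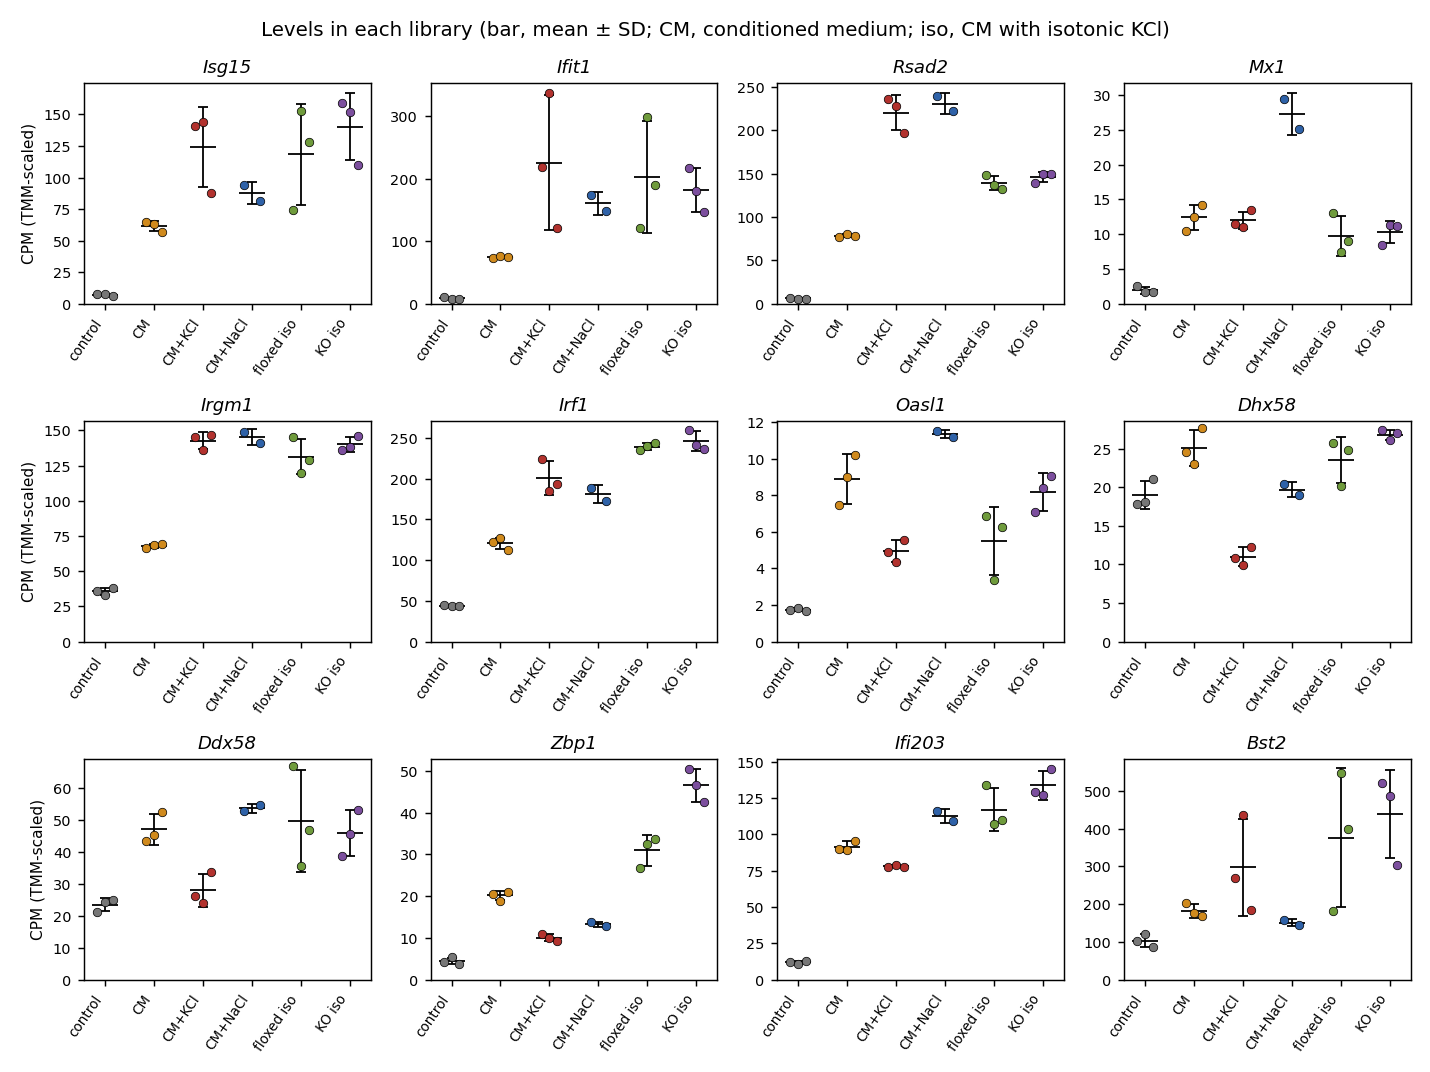
Levels (CPM, TMM-scaled) of selected interferon-stimulated genes in each library (points), with group mean ± SD (bars). Rsad2 lay at 197 to 239 CPM with either salt against 77.2 to 79.9 in conditioned medium alone, while Dhx58 lay at 9.9 to 12.3 CPM with KCl and at 19 to 20.4 with NaCl.

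KCl against NaCl, both in conditioned medium, tested whether the salts differed from each other. Fewer members were higher with KCl than with NaCl: 4 were higher, 19 lower and 19 not called, with a median log2 difference of −0.26 against −0.04 over all genes. Of all genes 31.6% were called, 15.4% as higher and 16.2% as lower with KCl. The lowest ratios were in Mx1, at 11 to 13.4 CPM with KCl and 25.1 to 29.4 with NaCl (−1.20, SE 0.17, adjusted p = 0.00078), and in Oasl1, at 4.37 to 5.56 against 11.2 to 11.5 CPM (−1.20, SE 0.16, adjusted p = 0.00073). Both RNA helicase genes followed, Ddx58 at 24.1 to 33.8 against 52.6 to 54.6 CPM (−0.95, SE 0.14, adjusted p = 0.00096) and Dhx58 (−0.85, SE 0.13, adjusted p = 0.00125). The libraries of both salts were apart in each of these 4 genes. Higher with KCl were Bst2 (0.96, adjusted p = 0.0276), Ifi27l2a (0.74, adjusted p = 0.0309), Ifi35 (0.56, adjusted p = 0.0045) and Ifi204 (0.32, adjusted p = 0.0387). Once the length slope was in the fit, Bst2 (−0.43), Ifi27l2a (−0.25) and Ifi204 (−0.05) turned sign and Ifi35 was not called (0.12). Calls of Ifi27l2a and Ifi204 were each lost without KCl 1, KCl 2, NaCl 1 or NaCl 2, that of Bst2 without NaCl 1 or NaCl 2, and that of Ifi35 without NaCl 2. Rsad2, Irgm1 and Irf1 had differences of −0.08 (SE 0.10), −0.04 (SE 0.08) and 0.13 (SE 0.10), all not called. With scaling by total counts alone, under which the median of all genes was −0.177 and the share of called genes that were higher went from 48.6% to 30.1%, 3 members were higher and 27 lower. This comparison rests on the pooled spread and on few libraries. With only the 5 libraries of both salts fitted 0 members were called, as against 8 of 13367 genes. With the length slope as a covariate Trim30a alone was called, among 199 of 14519 genes. Without NaCl 1 the called members numbered 8 and without NaCl 2 they numbered 13. Across the members the log2 difference between the salts correlated with log2 exon length at r = −0.52 (n = 42 genes, which share the libraries).

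Read gene by gene over the 3 comparisons, 17 members rose in conditioned medium and rose further with each salt: Cmpk2, Eif2ak2, Ifi47, Ifih1, Ifit1, Ifit2, Ifitm3, Igtp, Irf1, Irf9, Irgm1, Irgm2, Isg15, Mx2, Oas2, Rsad2 and Rtp4. Of these, Isg15, Ifit1, Ifi47, Rtp4, Eif2ak2 and Irf9 were not called for KCl with the length slope in the fit, Isg15 and Ifit1 lost the NaCl call without either NaCl library, and Irf9 turned to −0.12 in conditioned medium with scaling by total counts. Bst2, Ifi204, Ifi35 and Xaf1 rose further with KCl and were not called with NaCl. Ifit3, Iigp1, Irf7, Mx1, Parp14, Stat2 and Usp18 rose further with NaCl and were not called with KCl. Ddx58, Dhx58, Oasl1, Oasl2, Phf11d and Trim30a fell with KCl and were not called with NaCl, Ifi203 fell with KCl and rose with NaCl, and Zbp1 fell with both. These comparisons share the libraries of conditioned medium alone. Among those named here for 1 salt only, Xaf1, Usp18 and Trim30a were not called for KCl against NaCl. With the length slope in the fit Bst2, Ifi204, Xaf1, Ddx58, Oasl1, Oasl2, Phf11d and Ifi203 were not called for KCl. Parp14 and Stat2 then rose with KCl, Ifi204, Ifi35 and Xaf1 rose with NaCl, and Dhx58 fell with NaCl. Irf7, Ifi203 and Parp14 lost the NaCl call without NaCl 1 or NaCl 2. Ifit3 and Usp18 lost it without NaCl 1, and Iigp1 and Zbp1 without NaCl 2.

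Among the 31 members with a RefSeq window, the 17 with the GAAA pair had median log2 fold changes of 0.93 in conditioned medium against control, 0.48 with KCl and 0.65 with NaCl. The 14 without it had medians of 1.38, 0.32 and 0.35. With the motif 16 rose in conditioned medium, 10 rose and 3 fell with KCl, and 12 rose with NaCl. Without it 12 rose in conditioned medium, 7 rose and 5 fell with KCl, and 6 rose with NaCl. Oas3 and Rsad2, whose promoters are printed above with 1 match each, had log2 fold changes of −0.02 and 3.69 in conditioned medium.

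Floxed macrophages in conditioned medium with isotonic KCl were set against C57BL/6J macrophages in conditioned medium alone. Strain and isotonic KCl change together here and cannot be told apart. In floxed cells 24 members were higher, 2 lower (Oasl1 and Samhd1) and 16 not called, with a median log2 difference of 0.49 against −0.01 over all genes, of which 15.3% were called, 8.2% as higher and 7.09% as lower. With only these 6 libraries fitted 13 members were called, and 411 of 12966 genes (3.17%). Calls then lost were those of Cmpk2, Eif2ak2, Ifi203, Ifi35, Ifit1, Irf7, Irf9, Isg15, Oas1a, Oasl1, Phf11d, Samhd1 and Zbp1. Irf1 stood at 235, 240 and 244 CPM in floxed cells against 113 to 127 CPM (0.99, SE 0.08, adjusted p = 2.4e-06). Irgm1 stood at 145, 120 and 129 CPM (0.95, SE 0.08, adjusted p = 4.1e-06) and Ifi47 at 79, 81.6 and 85.2 CPM (0.89, SE 0.11, adjusted p = 6e-05). Rsad2 stood at 148, 137 and 132 CPM (0.83, SE 0.09, adjusted p = 4.2e-05). In all 4 genes every floxed library exceeded every library of conditioned medium alone. Zbp1, which was lower in C57BL/6J cells with KCl not labelled isotonic, stood at 26.8, 32.4 and 33.8 CPM. These lay above the 18.9 to 21.1 CPM of conditioned medium alone (0.62, SE 0.13, adjusted p = 0.00484). Dhx58 stood at 25.8, 20.2 and 24.8 CPM and overlapped it (−0.09, SE 0.12, adjusted p = 0.636).

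Other called members were Ifit1 at 121, 299 and 190 CPM (1.45, SE 0.32, adjusted p = 0.00791), Isg15 at 74.6, 153 and 128 CPM (0.95, SE 0.23, adjusted p = 0.0147) and Rtp4 at 147, 189 and 179 CPM (0.73, SE 0.12, adjusted p = 0.00075). Floxed 1 was the lowest library in each. Ifit2 stood at 89.8, 67.8 and 73.6 CPM (0.66), Cmpk2 at 46.7, 45.7 and 44.5 (0.54), Oas1a at 106, 110 and 118 (0.47), Irf7 at 49.7, 39.5 and 44 (0.37) and Ifi203 at 134, 107 and 110 (0.36). All 5 were called and had no overlap with conditioned medium alone. Calls of Isg15, Irf7, Ifi203, Ifi35, Irf9, Oasl1 and Samhd1 were each lost without at least 1 library: Irf7 without conditioned medium 1, 2 or 3 or floxed 3, Ifi203 without conditioned medium 1 or 2, and Isg15 without conditioned medium 3 or floxed 2 or 3. Ifi35 was lost without floxed 2, Irf9 without conditioned medium 1, Oasl1 without conditioned medium 2 or 3 or floxed 2 or 3, and Samhd1 without conditioned medium 1, 2 or 3 or floxed 2 or 3. Not called were Bst2 at 182, 548 and 400 CPM (1.04, SE 0.34, adjusted p = 0.0508), Parp14 at 376, 166 and 212 CPM, Ifi204 at 165, 210 and 180 CPM, Ddx58 at 66.7, 35.4 and 46.7 CPM, Mx1 at 13, 7.44 and 8.94 CPM, Iigp1 at 6.24, 4.59 and 6.64 CPM and Oas3 at 42.7, 24.5 and 30.2 CPM. Oasl1 stood at 6.89, 3.38 and 6.24 CPM, below conditioned medium alone (−0.68, SE 0.21, adjusted p = 0.0394).

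Part of the spread among floxed libraries followed gene length. Log2 ratios of floxed 1 to the mean of floxed 2 and 3 ran from −1.38 for Bst2 to 0.99 for Parp14 and correlated with log2 exon length at r = 0.69 (n = 42 genes, which share these 3 libraries). For KCl 3 over KCl 1 and 2 the same value was 0.54, from −1.19 for Ifit1 to 0.56 for Oasl2, and for knockout 3 over knockout 1 and 2 it was 0.68. Exon lengths of the members ran from 463 bases for Ifi27l2a to 9306 for Parp14.

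**Figure D4:**
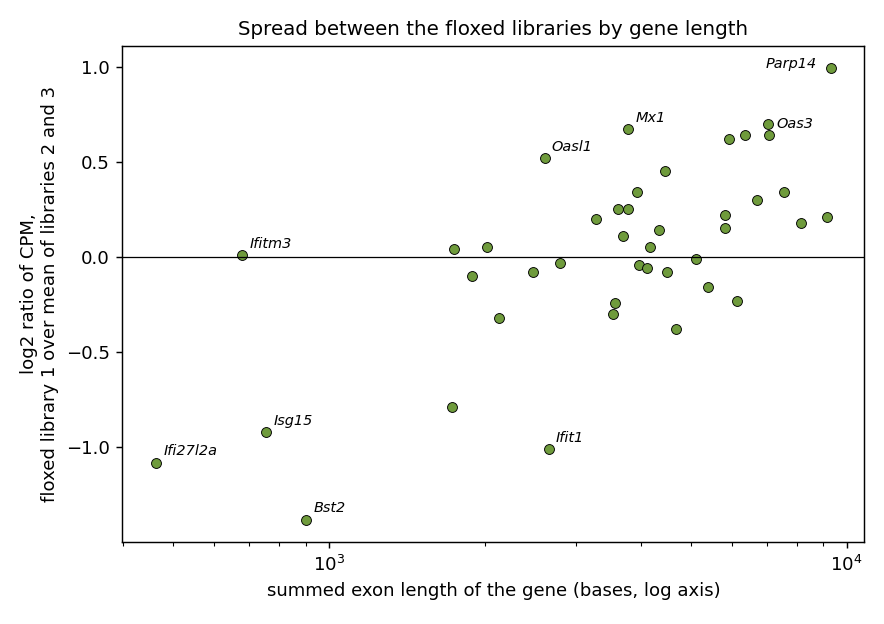
Log2 ratio of CPM in floxed library 1 to the mean of floxed libraries 2 and 3 (vertical axis) against summed exon length in bases (log axis), 1 point for each of the 42 genes. Bst2 (−1.38) is the lowest point and Parp14 (0.99), the longest gene, the highest, while the short gene Ifitm3 lies at 0.01.

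The Kcnj2 knockout was set against floxed cells, both in isotonic KCl. No group with Lyz2-Cre and intact Kcnj2 was present. Loss of the channel and presence of Lyz2-Cre therefore change together and cannot be told apart. Kcnj2 itself stood at 173, 139 and 147 CPM in floxed and at 19.7, 24.4 and 29.4 CPM in knockout cells (−2.64, SE 0.19, adjusted p = 0.015), as the labels have it. No interferon-stimulated gene passed the threshold: 0 of 42 were called in edgeR's quasi-likelihood test, which called 0.0156% of 12782 genes, 0.00782% as higher and 0.00782% as lower. At an unadjusted p under 0.05 there were 9 members, all higher in the knockout, and 5.6% of all genes, 1.51% as higher. DESeq2 called 2 members, Ifi47 and Zbp1, and 1.38% of all genes. The median log2 fold change was 0.16, with 34 members above and 8 below 0, and the median of all genes was −0.00. With all 17 libraries in 1 fit 5 members were called (Ifi27l2a, Ifi47, Oas1a, Oas3 and Zbp1) and 1.85% of 14676 genes. With the length slope as a covariate 16 members were called, all higher in the knockout, and 958 of 12782 genes (7.49%), of which 401 were higher and 557 lower. B cell markers summed to 129 to 144 CPM in the knockout and to 57.2 to 83.8 CPM in floxed cells, and stromal markers to 191 to 269 CPM and 276 to 571 CPM. Their part was not tested.

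Ifi47 had the lowest adjusted p. It stood at 112, 110 and 109 CPM in the knockout against 79 to 85.2 CPM in floxed cells (0.44, SE 0.10, adjusted p = 0.301). Zbp1 stood at 50.4, 46.7 and 42.5 CPM against 26.8 to 33.8 CPM (0.59, SE 0.14, adjusted p = 0.324). For Oas3 the knockout libraries were at 52.9, 53.1 and 62.9 CPM against 24.5 to 42.7 CPM (0.80, SE 0.21, adjusted p = 0.39). Oas1a stood at 136, 140 and 145 CPM against 106 to 118 CPM (0.34, SE 0.11, adjusted p = 0.567). These 4 genes had no overlap between the groups, yet none passed. Usp18, Ifit3, Ifi44, Ifi27l2a and Trim30a were also higher without overlap, and Irgm2 was lower without overlap. How many of all genes were apart in this way was not counted. The highest value, 1.26 (SE 0.37, adjusted p = 0.497), belonged to Ifi27l2a, at 17.8 ± 9.24 CPM in floxed and 42.4 ± 8.96 in knockout cells.

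Of the other members with library values, all but Dhx58, Rtp4 and Oasl1 overlapped floxed cells. Rsad2 stood at 139, 149 and 150 CPM, Irgm1 at 136, 138 and 146, Irf1 at 260, 242 and 237, Isg15 at 159, 152 and 110, and Ifit1 at 218, 180 and 147. The standard errors of these 5 log2 fold changes were 0.10 to 0.32. Bst2 stood at 522, 487 and 305 CPM, Parp14 at 210, 224 and 299, Ifi204 at 202, 187 and 178, Ifi203 at 129, 127 and 145, and Ifit2 at 76.3, 79 and 90.2. All 5 overlapped floxed cells. Cmpk2 stood at 43.4, 46 and 41.2 CPM, Ddx58 at 38.8, 45.7 and 53.2, Mx1 at 8.44, 11.3 and 11.1, Iigp1 at 4.8, 4.37 and 4.24, and Dhx58 at 27.4, 26.1 and 27. Only in Dhx58 of these 5 were all knockout libraries above all floxed ones (0.19, SE 0.14, adjusted p = 1). Rtp4 stood at 230, 225 and 194 CPM, all above floxed (0.34, SE 0.14, adjusted p = 0.862). Oasl1 stood at 7.07, 8.41 and 9.06 CPM, also all above (0.57, SE 0.28), and Irf7 at 48.3, 58.2 and 57.8 CPM overlapped (0.31, SE 0.14).

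Upstream of these genes, little interferon was counted. Of 21 interferon genes 16 had 0 counts in every library, and apart from Ifnb1 no interferon gene had more than 7 counts in a library. Ifnb1, which encodes interferon beta, had 1, 0 and 0 counts in control, 8, 4 and 7 in conditioned medium, 9 and 13 with NaCl, 32, 16 and 17 with KCl, 8, 2 and 4 in the knockout and 5, 1 and 6 in floxed cells. It was called in conditioned medium against control (adjusted p = 0.00135) and with KCl against conditioned medium (1.97, SE 0.48, adjusted p = 0.00327). NaCl against conditioned medium was not called (0.65, adjusted p = 0.444), nor was KCl against NaCl (1.33, adjusted p = 0.0579).

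Receptor and signalling genes did not follow the salts upward. Of 10 tested receptor and signalling genes outside the 42, 8 rose and 2 fell in conditioned medium, led by Jak2 (2.13). With KCl 2 rose and 6 fell, and with NaCl none rose and 3 fell. Of all 14519 genes 27.2% rose and 26.4% fell in conditioned medium, 26.6% and 27.4% with KCl, and 13.7% and 14.9% with NaCl. These shares also apply to the lists below. Ifnar1, the receptor chain, stood at 160, 167 and 180 CPM in conditioned medium, at 74.5, 72.8 and 97.4 CPM with KCl (−1.06, adjusted p = 5e-06) and at 121 and 135 CPM with NaCl (−0.40, adjusted p = 0.0292). Tyk2 fell with KCl (−1.04, adjusted p = 5.2e-07) and was not called with NaCl. For Ifnar1 the libraries of both salts lay below all libraries of conditioned medium alone.

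Of 20 tested genes that lead to interferon production, 10 rose and 5 fell in conditioned medium, 7 rose and 7 fell with KCl, and 7 rose and 3 fell with NaCl. Ikbke, a kinase that activates Irf3 and Irf7, stood at 288, 281 and 308 CPM in conditioned medium, at 113, 115 and 124 CPM with KCl (−1.33, adjusted p = 2.6e-08) and at 168 and 160 CPM with NaCl (−0.83, adjusted p = 1.6e-05). Cgas, the sensor of cytosolic DNA, stood at 8.34, 10 and 9.37 CPM, at 24, 26.7 and 25.9 CPM with KCl (1.45, adjusted p = 1.8e-07) and at 26.9 and 29.9 CPM with NaCl (1.63, adjusted p = 4.8e-07). Both salts lay below conditioned medium alone for Ikbke and above it for Cgas. Tlr4, the receptor for endotoxin, rose with KCl (0.97) and NaCl (1.29), and Mavs, the mitochondrial adaptor of RIG-I, fell with KCl (−1.19) and NaCl (−0.40). Tlr8, an RNA receptor in endosomes, fell with KCl (−2.35). It stood at 36.8, 35.2 and 46 CPM in conditioned medium and at 5.24, 5.35 and 12.3 CPM with KCl. It also varied within groups, at 63.8, 8.57 and 24.4 CPM in floxed and at 9.4, 23.7 and 42.6 CPM in knockout cells. In each of these groups the highest library was the one with the highest length slope. Calls of single genes outside the members were not examined with the length slope in the fit, total-count scaling or a library left out.

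Negative regulators moved in both directions, with median log2 fold changes of 0.59 in conditioned medium, −0.15 with KCl and 0.12 with NaCl. Of 13 tested, 9 rose and 2 fell in conditioned medium, 4 rose and 5 fell with KCl, and 4 rose and 3 fell with NaCl. Socs1, which blocks the kinases of the receptor, stood at 1.06, 1.02 and 1.15 CPM in control, at 18.1, 19.7 and 18.2 CPM in conditioned medium (4.10, adjusted p = 9.6e-11), at 9.2, 8.29 and 6.75 CPM with KCl (−1.22, adjusted p = 5.8e-06) and at 9.22 and 7.95 CPM with NaCl (−1.11, adjusted p = 9.3e-05). Socs3, a relative that acts on cytokine receptors, rose by 6.31 in conditioned medium and fell with KCl (−2.13) and NaCl (−1.21). The phosphatase Ptpn6 had the same signs (1.34, −0.85 and −0.67, all called). Others went the opposite way with salt. Mean levels of Irf2bp1 were 23.4 CPM in conditioned medium and 37.7 CPM with KCl. Those of Irf2 were 32.7 CPM in conditioned medium and 44.7 CPM with NaCl.

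All 5 tested chemokine genes rose in conditioned medium, among them Cxcl10 (5.78) and Ccl5 (4.15). With KCl 2 rose, including Ccl2 (0.79), and Ccl5 fell (−0.69). With NaCl 2 rose, including Cxcl9 (1.25), and Ccl5 fell (−0.38). A further list of 51 tested interferon-stimulated genes outside the 42 had 30 higher and 6 lower in conditioned medium, 10 higher and 14 lower with KCl, and 14 higher and 3 lower with NaCl. Its median log2 fold changes were 0.82, −0.04 and 0.26. With KCl, where 26.6% of all genes were higher and 27.4% lower, this list did not rise as a whole. In that list Ifi205 rose by 6.25 and then fell with KCl (−1.12) and NaCl (−0.76), and Trim25, which activates RIG-I, rose with KCl (0.68) and NaCl (0.64). None of the genes in these lists was called between knockout and floxed cells, where 0.0156% of all genes were called.

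**Figure D5:**
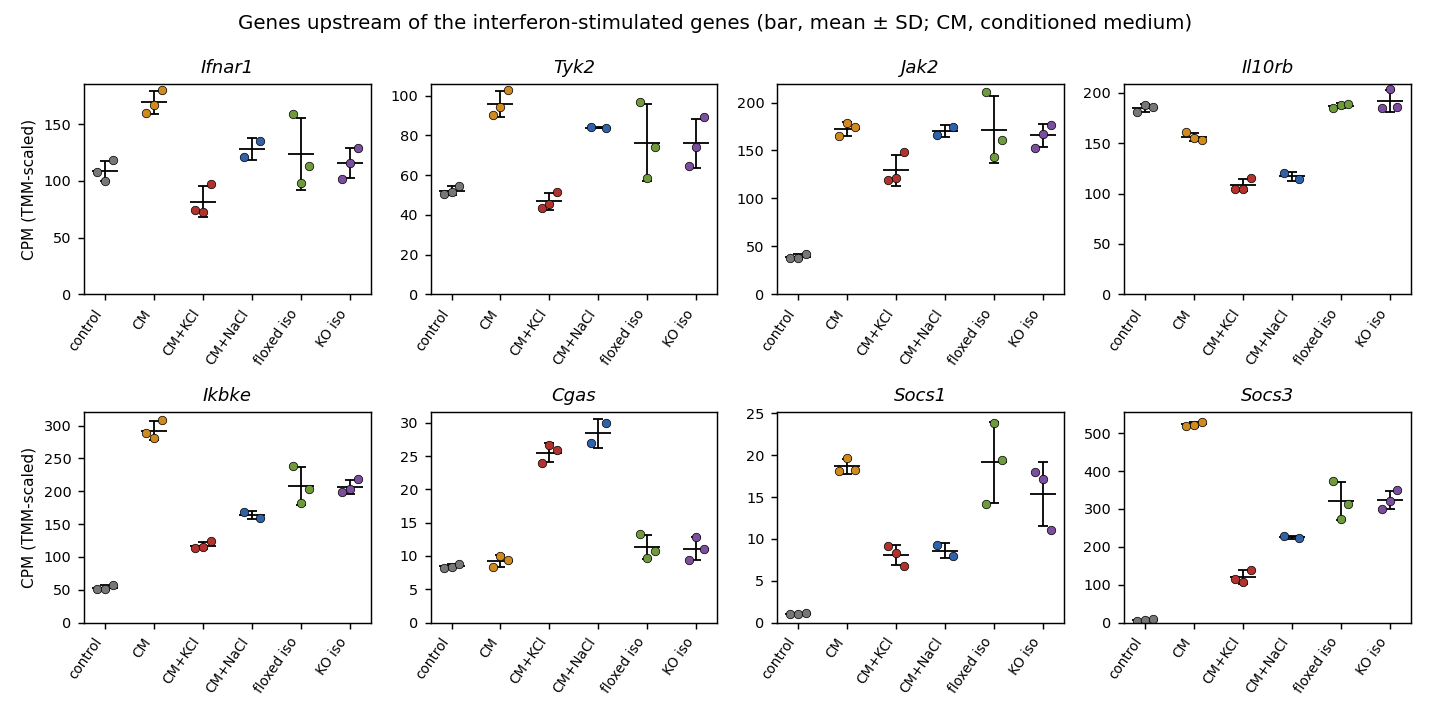
Levels (CPM, TMM-scaled) of 8 genes from the lists of receptors and signalling, interferon production and negative regulators in each library (points), with group mean ± SD (bars). Ifnar1 was at 72.8 to 97.4 CPM with KCl against 160 to 180 in conditioned medium alone, and Cgas was at 24 to 26.7 CPM with KCl against 8.34 to 10.

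The mean pattern of the members over the 6 groups was compared with 8074 genes outside all lists. These genes, too, had a mean of at least 10 CPM, and the pattern was the average over 38 members given above. The 5 genes most like it by Pearson correlation over 6 group means were Vps35 (r = 0.995), Tcp11l1 (0.992), Anpep (0.990), Chuk (0.989) and Ccrl2 (0.988). Each r describes 6 group means from the same 17 libraries.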

How the data were processed

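The 17 libraries hold total RNA of macrophages grown from bone marrow, grouped by strain and treatment per the labels. The authors deposited raw counts per Ensembl gene, whose columns all matched a sample title. The submitters' processing notes name DESeq2 1.30.1 without its role. Aligner, counter, build and strandedness are not given in the sources. Of 55401 identifiers, 55141 had a symbol in GENCODE M21 (GRCm38) and 28418 had 0 counts throughout. Promoters came from RefSeq GRCm38.p6.

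Counts were tested with edgeR 4.0.16 in R 4.3.3 (quasi-likelihood F test, robust, TMM factors, default low-count filter), with Benjamini-Hochberg adjustment over all genes tested and a threshold of 0.05; this applies to every adjusted p. The 11 C57BL/6J libraries were fitted together, the 6 isotonic libraries alone, and all 17 for isotonic floxed cells against conditioned medium. A log2 fold change (bare values beside a gene) is given with its SE. Levels are CPM scaled by TMM over 17 libraries (14676 genes). The length slope of a library is that of each gene's log2 deviation from its mean over the libraries on log2 exon length, over 12287 genes.

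The members and lists (185 symbols, 182 matched) were chosen with earlier results of these data known. Library values are given, in each role, for the member highest per length and the one with the widest range of fold change, and for the 3 smallest p per comparison, 22 members in all; up to 4 genes per list and comparison are named by smallest p. Every pair of replicates differed by more than sampling noise (2.08 to 146 chi-square units per degree of freedom). Alternatives were DESeq2 1.42.0, RLE factors, total-count scaling, other filters, only both groups, a replicate block, the length slope and leaving out each library. Methods were tested on simulated data. Equal replicate numbers were not taken as pairs. A count of 0 is below 3 counts, a limit of counting error alone.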

Additional observations from a re-analysis of the deposited data

How the results depend on the processing

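Of 3444 values of single members under alternatives, 3127 kept their direction and side of the threshold, 212 lost a call, 95 gained one and 10 reversed; another 83 changed sign with no call either way. Called members with each library left out numbered 35 to 38 for conditioned medium against control, 27 to 33 for KCl and 16 to 26 for NaCl against conditioned medium, 8 to 26 for KCl against NaCl, 0 for the knockout and 22 to 29 for isotonic floxed cells. With the length slope as a covariate they numbered 18 for KCl against conditioned medium, 1 for KCl against NaCl and 16 for the knockout. With only both groups fitted they numbered 0 for KCl against NaCl and 13 for isotonic floxed cells. The knockout had 2 with DESeq2 and 5 with all 17 libraries. For these the cause was not tested.

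Values that reversed with the length slope were, for KCl against conditioned medium, Xaf1 (−0.02), Parp14 (0.50) and Bst2 (−0.37), for KCl against NaCl Stat2 (0.10), Ifi204 (−0.05), Parp14 (0.13), Bst2 (−0.43) and Ifi27l2a (−0.25), and for the knockout Parp14 (0.23). With total-count scaling Irf9 reversed in conditioned medium (−0.12). For NaCl against conditioned medium it moved the median of all genes from −0.008 to −0.077. With the replicate block members called were 39, 33, 26, 24, 0 and 27 in the 6 comparisons. Residuals of same-number libraries correlated above 0.1 in 7 of 15 pairs of C57BL/6J libraries and 1 of 3 isotonic pairs, and those of different numbers in 8 of 30 and 4 of 6. NaCl has 2 libraries, so its comparisons lean on the spread of the other groups.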
